A study of Mus musculus with 12 samples.

Results

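Krt6a, Krt6b, Krt16, Krt17, Krt75 and Krt79 are 6 keratin genes of wounded epidermis and of the hair follicle, chosen by name from the 53 protein-coding keratin genes of the GENCODE mouse M21 annotation. All 6 were found among the 53379 gene identifiers of the count tables, and all 6 were among the 23635 genes that passed the filter on low counts. RNA was measured by bulk RNA sequencing of whole skin from 3-month-old mice of mixed C57BL/6 & B6D2 strain, taken intact or 14 days post-injury. The control genotype was Prss56Cre with the R26tdTom reporter. Nf1-KO mice carried the same 2 alleles and, in addition, Nf1flox/-, a floxed and a null allele of Nf1, the RAS regulator neurofibromin. Each genotype was sampled in both skin states, which gives 4 groups of 3 libraries. The series title places the Nf1 knockout in boundary cap cells, where the Prss56 promoter drives Cre. Cre activity in keratinocytes was not measured here, and the null allele is present whether or not Cre acted. The labels do not say that the libraries of a group came from separate animals. The p-values therefore rest on the spread between these libraries, which may not be that between animals.

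Keratins form intermediate filaments from pairs of a type II and a type I chain. Krt6a, Krt6b, Krt75 and Krt79 encode type II chains, and Krt16 and Krt17 encode type I chains. Krt6a, Krt6b, Krt16 and Krt17 are the classic stress keratins: they are scarce in resting epidermis between the follicles and are switched on in keratinocytes at a wound edge. Each also has a place in normal skin appendages, Krt6a and Krt16 in the companion layer and outer root sheath, and Krt17 through much of the outer root sheath. Krt75 is the type II keratin of the companion layer, the single cell sheet between the outer and inner root sheaths. Krt79 marks cells of the upper follicle, the infundibulum and the sebaceous duct.

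Depth ran from 8817013 to 16809687 counts per library. Nf1 averaged 11.8 ± 2.54 CPM in control uninjured and 9.5 ± 0.505 CPM in Nf1-KO uninjured skin (SD, n = 3). In injured skin it averaged 12.6 ± 3.61 CPM in control and 11.7 ± 3.67 CPM in Nf1-KO libraries, and it was called in neither genotype comparison (adjusted p = 0.884 and 0.989). The count is of the whole gene in whole skin and says little about loss in a minority of cells. Skin state moved with sex in these libraries. The Y-linked gene Ddx3y was at 68.2 to 93.3 CPM in the uninjured and at most 0.0595 CPM in the injured libraries. Xist, the transcript of the inactive X chromosome, was at most 2.95 CPM in the uninjured and at least 436 CPM in the injured ones. Every comparison of injured with uninjured skin below is therefore, by these markers, also a comparison between sexes, and the contributions cannot be told apart. Olfactory and vomeronasal receptor genes, used as a measure of background reads, ranged over 0.0944 to 0.332 CPM per kb without injury and 0.00224 to 0.0531 CPM per kb with it. Fewer cells of a type and less RNA per cell cannot be told apart in such bulk samples.

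The type II genes lie on the minus strand of chromosome 15 and the type I genes on the minus strand of chromosome 11 (GRCm38, the same assembly as mm10). Krt6a spans chr15:101689910-101694307, Krt6b spans chr15:101676023-101680287, Krt75 spans chr15:101563345-101573904 and Krt79 spans chr15:101929332-101940324. Krt16 lies at chr11:100246091-100248902 and its neighbour Krt17 at chr11:100256217-100261029. Krt6a and Krt6b are near copies. Their coding sequences of 1662 and 1665 bases align over 1662 bases, of which 37 differ and 97.8% are the same. The most different 60 bases show where a read can best be told apart between Krt6a and Krt6b. They are coding bases 817 to 876 of both genes (Krt6a at chr15:101692484-101692543, Krt6b at chr15:101678303-101678362), printed on the minus strand from 5′ to 3′, with the 10 differing bases in capitals:
Krt6a: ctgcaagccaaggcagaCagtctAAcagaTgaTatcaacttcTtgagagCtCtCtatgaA
Krt6b: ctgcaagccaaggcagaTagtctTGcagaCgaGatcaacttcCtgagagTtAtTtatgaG

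Other stretches are the same in both copies. The longest identical run holds 280 coding bases, 34 to 313. Its first 60 bases, given here because a read within them fits both genes equally, are the same letters in Krt6a (chr15:101694156-101694215) and Krt6b (chr15:101680131-101680190), with capitals throughout because all are shared:
Krt6a and Krt6b: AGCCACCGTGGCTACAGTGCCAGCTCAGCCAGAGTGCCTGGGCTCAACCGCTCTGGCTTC

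Of all 50-base windows of the longest coding transcript, 62% of those of Krt6a and 50.1% of those of Krt6b were found in at least 1 other gene, most of them in the other copy. Krt6a also shared 6.73% of its windows with Krt5, which held 26662 to 103270 counts in a library. For Krt16 the share was 37.6%, which included 12.4% shared with Krt14 and 25.2% with the pseudogene Gm11597, itself at no more than 6 counts in any library. Krt17 at 3.99%, Krt75 at 2.49% and Krt79 at 0% were nearly or wholly unique. How the counting treated reads that fit several genes is not given in the sources used here. The levels of Krt6a, Krt6b and Krt16, and the split between the copies, are therefore uncertain. The library kit does not mark strand, and small plus-strand microRNA models lie over Krt6a, Krt6b and Krt75. Their counts reached 7.28%, 8.33% and 11.6% of the count of the respective keratin in the library where that share was highest. Over all libraries the models held at most 1160, 533 and 929 counts, and the keratins at most 49463, 32063 and 10086.

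Krt6a, Krt6b and Krt16 were abundant in all 6 injured libraries and far lower in 4 of the 6 uninjured ones, where Krt6b rested on 12 reads or fewer. Values are TMM-normalised CPM, counts scaled to a common library size with edgeR's TMM factors. In uninjured skin Krt6a stood at 14.2, 14.9 and 367 CPM in control libraries 1, 2 and 3, and at 47.8, 13.9 and 501 CPM in Nf1-KO libraries 1, 2 and 3. In injured skin Krt6a reached 4396, 1343 and 2380.0 CPM in control and 1420.1, 1259 and 2375 CPM in Nf1-KO libraries. Every injured library lay above every uninjured library, and both uninjured libraries numbered 3 lay far above the other 4.

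Krt6b had the same shape with a lower floor. It stood at 0.376, 0.921 and 156 CPM in control uninjured and at 0.448, 0.919 and 177 CPM in Nf1-KO uninjured skin. The low values rest on 4, 12, 5 and 12 reads, and the high ones on 2478 and 1960 reads. Injured libraries held 2849, 834 and 1569 CPM in control and 839, 599 and 1322 CPM in Nf1-KO skin. Again no uninjured library reached the lowest injured one.

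Krt16, the type I partner of the Krt6 chains, was at 3.48, 3.68 and 291 CPM in control uninjured and at 6.9, 3.6 and 380 CPM in Nf1-KO uninjured libraries. Injured libraries stood at 4049, 1414 and 2846 CPM in control and 1249.6, 909 and 1913 CPM in Nf1-KO skin. Both uninjured libraries numbered 3 were again the only uninjured ones above 10 CPM.

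**Figure D1:**
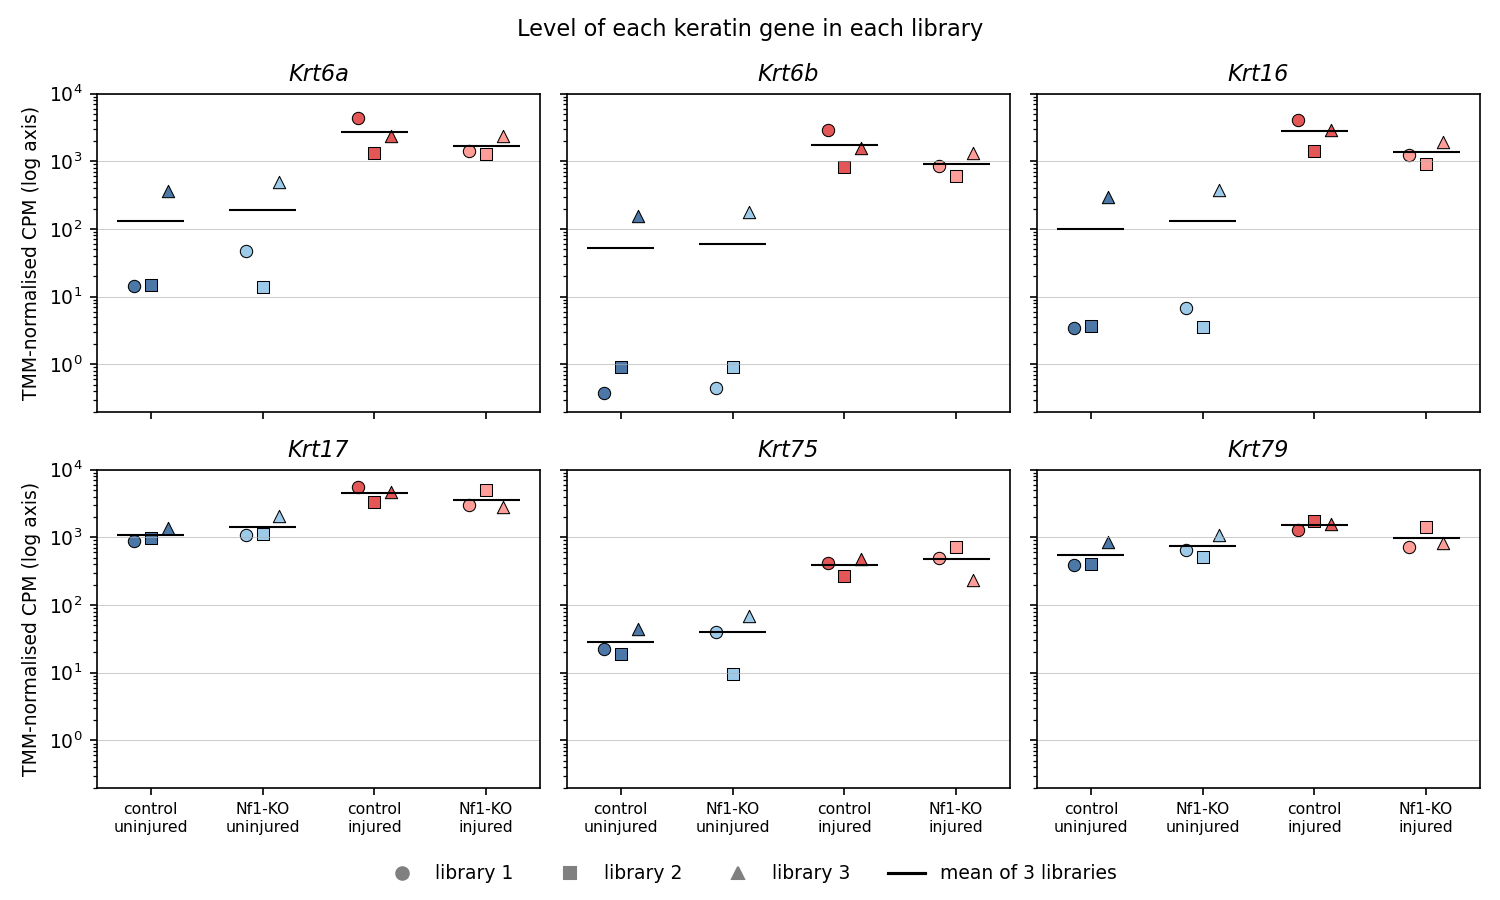
TMM-normalised CPM (log axis) of the 6 keratin genes in each library of the 4 groups, with libraries 1, 2 and 3 as circles, squares and triangles and the mean of 3 libraries as a line. Krt6a, Krt6b and Krt16 are low in uninjured libraries 1 and 2 of both genotypes and at 156 to 501 CPM in uninjured library 3, while Krt17, Krt75 and Krt79 differ less between uninjured libraries.

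The steps within the uninjured groups were unequal between genes. Control uninjured library 3 exceeded the higher of libraries 1 and 2 by 24.7-fold for Krt6a, 170-fold for Krt6b and 79.1-fold for Krt16. The same ratio was 1.38 for Krt17, 1.92 for Krt75 and 2.1 for Krt79. In Nf1-KO uninjured library 3 the ratios were 10.5, 193 and 55.1 for Krt6a, Krt6b and Krt16, against 1.89 for Krt17, 1.71 for Krt75 and 1.68 for Krt79. These libraries were the deepest of the uninjured ones, at 15521143 and 11830734 counts against 8817013 to 11766127 in the other 4. Their receptor-gene background, at 0.0944 and 0.11 CPM per kb, was the lowest of the uninjured libraries, where the other 4 ranged from 0.131 to 0.332.

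Of 19 genes of wound-activated keratinocytes that are not keratins, 15 were higher in library 3 than in libraries 1 and 2 of both genotypes, a pattern found in 18.7% of all genes tested. The other 4, named after their values were seen, were Ptgs2, Mmp9, Mmp10 and Serpinb2. The summed level of the 19 was 350, 670 and 1303 CPM in control uninjured libraries 1, 2 and 3, and 428, 412 and 853 CPM in Nf1-KO ones. Of these sums, Serpinb2 alone held 245, 547 and 753 CPM in control and 300, 317 and 197 CPM in Nf1-KO libraries. Sprr1b, a cornified envelope precursor, stood at 0.282, 0.844 and 49.2 CPM in control uninjured and at 0.269, 0.536 and 61.7 CPM in Nf1-KO uninjured skin. Stfa1, a cysteine protease inhibitor, was at 0.658, 0.767 and 21.6 CPM and at 0.806, 0.613 and 28.8 CPM in the same libraries. Many other gene lists were highest there too: 10 of the 17 lists compared, the wound list included, had their highest summed level in library 3 of both genotypes. Outer root sheath and bulge genes were at 194, 196 and 331 CPM in control and 265, 153 and 405 CPM in Nf1-KO uninjured skin. Keratins of the epidermis between follicles were at 29447, 33319 and 40383 CPM in control and 35731, 37118 and 49239.8 CPM in Nf1-KO uninjured skin. Fibroblast genes were at 1079, 1068 and 1932 CPM and at 1631, 712 and 1802 CPM, and melanocyte genes at 16.5, 20.4 and 29.2 CPM and at 35.6, 31.2 and 113 CPM. The summed inner root sheath level was not highest in library 3, at 570 to 711 CPM over the control uninjured libraries and 607 to 679 CPM over the Nf1-KO ones. Gata3 alone held 557, 700 and 577 CPM of the control sums and 598, 673 and 588 CPM of the Nf1-KO ones. By gene, 3 of the 10 were highest in library 3 of control and 9 in library 3 of Nf1-KO uninjured skin. Upper follicle and sebaceous duct genes were at 620, 621 and 1140.4 CPM in control and 792, 674 and 1994 CPM in Nf1-KO uninjured skin. What set libraries 3 apart was not tested, and the labels of these 2 libraries name no injury.

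**Figure D2:**
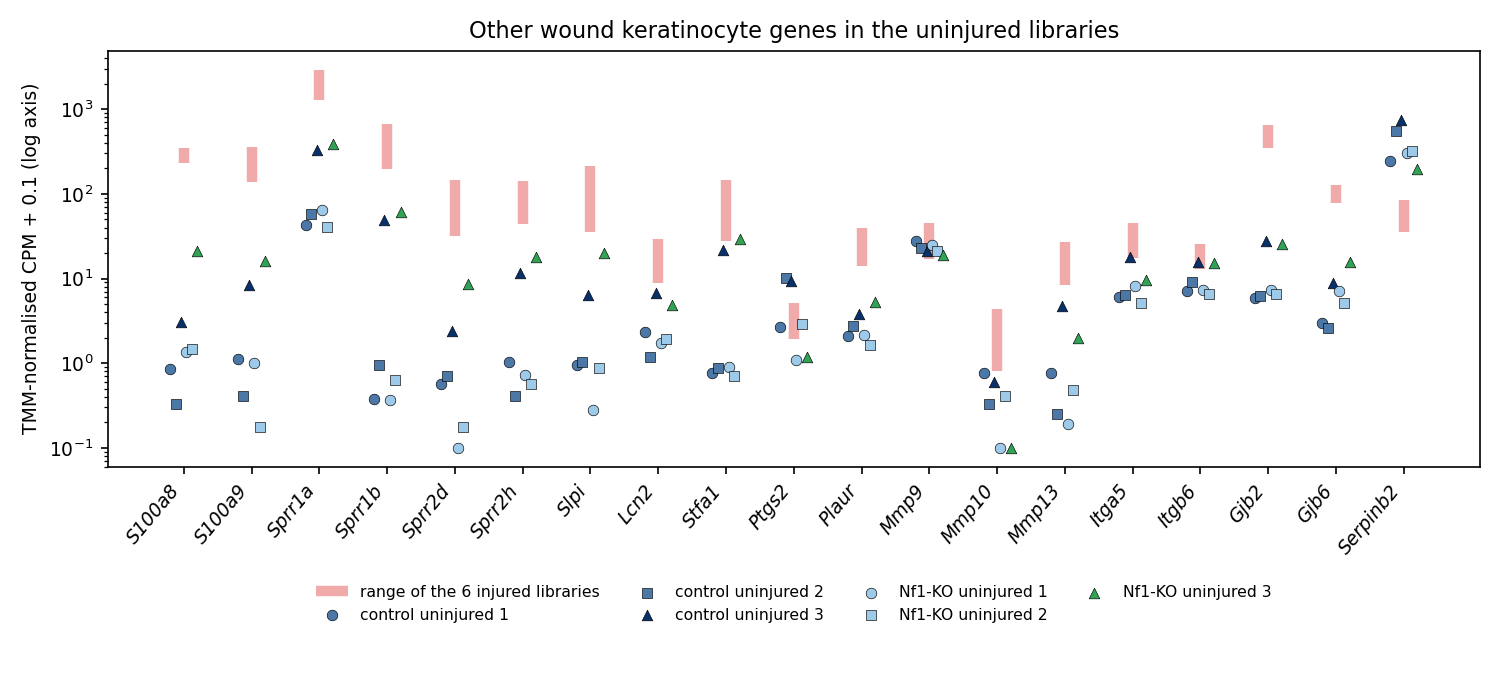
TMM-normalised CPM plus 0.1 (log axis) of 19 wound keratinocyte genes that are not keratins, with a symbol for each uninjured library and a bar for the range of the 6 injured libraries. Sprr1b is among the genes whose 2 triangles, uninjured library 3 of each genotype, lie between the other uninjured libraries and the injured range. For Stfa1 the control triangle lies there. Its Nf1-KO triangle, at 28.8 CPM, lies just inside the injured range, which starts at 27.4 CPM.

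Injury was then tested in each genotype with edgeR's quasi-likelihood test, with Benjamini-Hochberg adjustment over all 23635 genes and a call at adjusted p under 0.05. In control skin 3 of the 6 keratins were called higher and none lower, where 22.8% of all genes tested were called higher and 32.5% lower. All 6 had every injured library above every uninjured one, a pattern found in 25.8% of genes. In Nf1-KO skin 2 of 6 were called higher and none lower (19.1% and 18.4% of genes), and 5 of 6 showed no overlap (23.6% of genes). The median log2 fold change of the 6 was 4.07 in control and 3.27 in Nf1-KO skin, beside -0.21 and -0.09 over all genes tested.

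The 3 keratins with the largest estimates in control skin did not pass, although Krt6a did with a filter of 2 CPM in 3 libraries (adjusted p = 0.0499). Krt6a differed by a log2 fold change of 4.35 ± 1.72 (SE) in control skin (adjusted p = 0.0599) and 3.17 ± 1.63 in Nf1-KO skin (adjusted p = 0.157). Krt6b differed by 5.05 ± 2.55 (adjusted p = 0.126) and 3.95 ± 2.42 (adjusted p = 0.227). Krt16 differed by 4.80 ± 2.25 (adjusted p = 0.103) and 3.38 ± 2.11 (adjusted p = 0.233). The spread within the uninjured groups enters these standard errors.

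Without uninjured library 3 of each genotype, a setting chosen after seeing the data, all 3 passed in both genotypes. Krt6a then differed by 7.57 in control skin (adjusted p = 8.1e-05) and by 5.72 in Nf1-KO skin (adjusted p = 0.000232). Krt6b differed by 11.37 and 10.29 (adjusted p = 7.12e-06 and 8.15e-06), and Krt16 by 9.62 and 7.97 (adjusted p = 1.56e-06 and 3.32e-06). In that setting 6 of 6 keratins were called higher in control and 5 of 6 in Nf1-KO skin, where 22% and 18.8% of 25329 genes were called higher. The choice of test mattered too: with all libraries kept, DESeq2 called all 6 in control skin and limma voom called all 6 in control and 5 in Nf1-KO skin. The shares of all genes that DESeq2 and limma voom called higher are not given here. Whether these added calls are particular to the keratins was not tested. The summed count of Krt6a and Krt6b, which avoids the split between the copies, gave 4.59 in control (adjusted p = 0.0661) and 3.40 in Nf1-KO skin (adjusted p = 0.161).

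**Figure D3:**
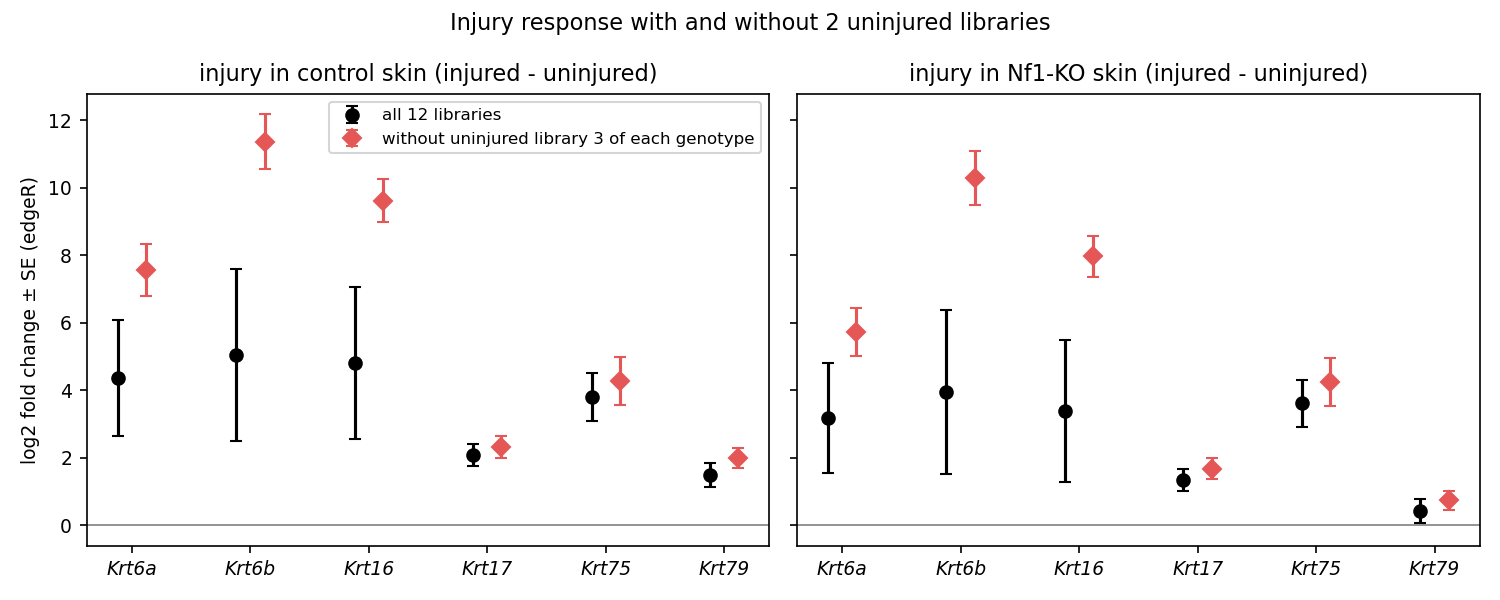
Log2 fold change of injured over uninjured skin, with SE, for the 6 keratins in control (left) and Nf1-KO skin (right), from all 12 libraries (circles) and without uninjured library 3 of each genotype (diamonds). Krt6a, Krt6b and Krt16 move most, for Krt6b in control skin from 5.05 to 11.37, while Krt17 moves from 2.08 to 2.31 in control skin.

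Krt17 rose with injury in both genotypes from a level that was already high. It was at 882, 983 and 1357 CPM in control uninjured and 1100.0, 1109 and 2093 CPM in Nf1-KO uninjured libraries. Injured libraries stood at 5594, 3286 and 4750.2 CPM in control and 3015, 4999 and 2831 CPM in Nf1-KO skin. All 6 injured libraries were above all 6 uninjured ones. The rise was 4.23-fold in control skin (log2 2.08 ± 0.33, adjusted p = 0.000179) and 2.52-fold in Nf1-KO skin (log2 1.33 ± 0.33, adjusted p = 0.00519). Both calls held without uninjured library 3 of each genotype, at log2 2.31 and 1.67.

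Krt75, the companion layer keratin, rose more steeply in fold, and its mean per length was the lowest of the 6 in every group. In uninjured libraries 1 and 2 alone it was not the lowest. It stood there at 6.94 and 5.73 CPM per kb in control and 12.3 and 2.98 CPM per kb in Nf1-KO skin. Krt16 was at 2.22 and 2.35 and at 4.41 and 2.3 CPM per kb in the same libraries, and Krt6b at no more than 0.412. Its uninjured values were 22.7, 18.7 and 43.6 CPM in control and 40, 9.73 and 68.6 CPM in Nf1-KO skin. Its injured values were 425, 271 and 481 CPM in control and 491, 711 and 236 CPM in Nf1-KO skin, with no overlap between the states. The rise was 13.8-fold in control (log2 3.79 ± 0.71, adjusted p = 0.00166) and 12.2-fold in Nf1-KO skin (log2 3.61 ± 0.70, adjusted p = 0.00344). Without control uninjured libraries 1 and 2, which leaves a single library in that group, the log2 fold change in control skin was 3.17.

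Krt79, the keratin of the upper follicle and sebaceous duct, rose in control skin. It was at 394, 401 and 845 CPM in control uninjured and at 1281, 1749 and 1580.1 CPM in control injured libraries, a 2.81-fold rise (log2 1.49 ± 0.36, adjusted p = 0.0028). Without control uninjured libraries 1 and 2, which leaves a single library in that group, the log2 fold change was 0.87. In Nf1-KO skin it was at 646, 516 and 1084.5 CPM without and 709, 1446 and 822 CPM with injury. Those groups overlapped, and the log2 fold change was 0.41 ± 0.35 (adjusted p = 0.371). The test of the difference between the responses gave -1.08 ± 0.50 (unadjusted p = 0.045, adjusted p = 0.461), so a weaker response in Nf1-KO skin was not shown with the filter in place. Without the filter on low counts that difference was -1.22 (adjusted p = 0.0295). That setting also raised the count of all genes called in this test, as given at the end. Whether the call is particular to Krt79 was not tested.

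Per length of exon the order of the 6 genes by group mean changed with skin state. In control uninjured skin Krt17 led at 693 ± 162 CPM per kb, followed by Krt79 at 115 ± 54.3. Krt16 at 63.6 ± 106, Krt6a at 54.6 ± 84.2, Krt6b at 23.5 ± 40.2 and Krt75 at 8.67 ± 4.09 CPM per kb came after (SD, n = 3). Only Krt17 differed from its neighbour in this order by more than the sum of their SDs. In control injured skin Krt17 led at 2929 ± 753 CPM per kb, ahead of Krt16 at 1769.7 ± 843, Krt6a at 1119 ± 642 and Krt6b at 783 ± 456. Krt79 at 323 ± 49.8 and Krt75 at 120 ± 33.2 CPM per kb were last, and this last pair was the only one of neighbours to differ by more than the sum of the SDs. In Nf1-KO uninjured skin the order was Krt17 at 925 ± 368, Krt79 at 158 ± 62.7, Krt16 at 83.1 ± 138, Krt6a at 77.5 ± 112, Krt6b at 26.6 ± 45.6 and Krt75 at 12.1 ± 9.01 CPM per kb. In Nf1-KO injured skin it was Krt17 at 2331 ± 775, Krt16 at 867 ± 326, Krt6a at 697 ± 250, Krt6b at 412 ± 165, Krt79 at 209 ± 83.5 and Krt75 at 147 ± 72.9 CPM per kb. In both Nf1-KO orders Krt17 alone stood apart from its neighbour by that measure. So Krt79 held the second place in uninjured skin and the fifth in injured skin in both genotypes. Its merged exons are long, and by its longest transcript its levels were 223 and 627 CPM per kb in control skin without and with injury, and 305 and 405 CPM per kb in Nf1-KO skin.

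As a share of all keratin gene counts the 6 genes together made up 4.19%, 4.01% and 6.94% in control uninjured libraries 1, 2 and 3, and 4.81%, 4.18% and 7.91% in Nf1-KO ones. They made up 32.1%, 18.6% and 22.1% in control injured and 17.7%, 15.9% and 26.7% in Nf1-KO injured libraries. The means were 5.05 ± 1.64% and 5.63 ± 2% without injury and 24.3 ± 7.01% and 20.1 ± 5.79% with it (SD, n = 3). Keratins as a whole took 3.16% to 5.8% of a library, on average 4.14% and 4.58% of counts in uninjured and 5.06% and 4.36% in injured skin of control and Nf1-KO mice. Krt17 was the largest single part in every library. It held 59.7% to 69.1% of the joint count of the 6 genes in uninjured libraries 1 and 2 of both genotypes, 44.4% and 48.7% in uninjured libraries 3, and 29.8% to 50.4% with injury. Krt79 exceeded each of Krt6a, Krt6b and Krt16 in control injured 2, at 3.65% of keratin counts, and in Nf1-KO injured 2, at 2.32%.

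**Figure D4:**
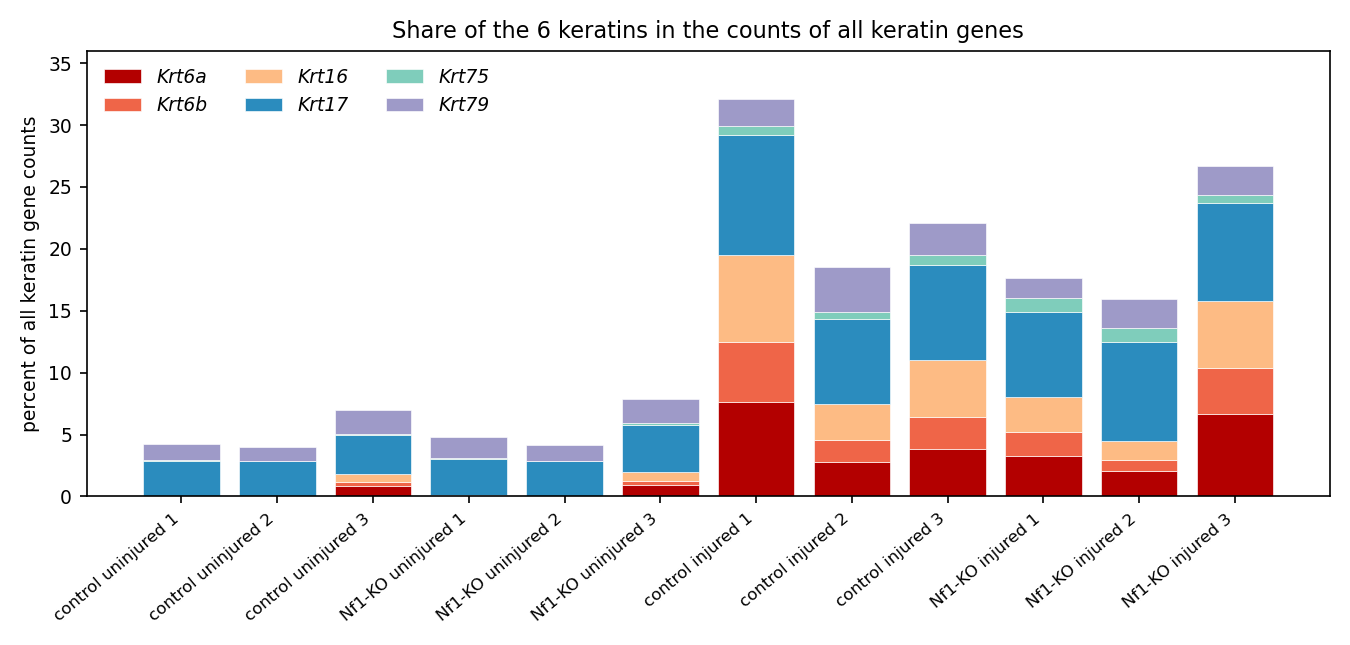
Percent of the counts of all keratin genes taken by each of the 6 keratins (stacked bars from 0) in each of the 12 libraries. The stack is 4.01% to 7.91% high in the uninjured libraries and 15.9% to 32.1% high in the injured ones.

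The balance between the Krt6 copies differed between the libraries as well. Krt6b made up 39.3%, 38.3% and 39.7% of the joint Krt6a and Krt6b count in control injured libraries and 37.1%, 32.3% and 35.7% in Nf1-KO injured ones. In the uninjured libraries numbered 3 the share was 29.9% (95% exact binomial interval 28.9 to 30.9) in control and 26.1% (25.1 to 27.1) in Nf1-KO skin. In uninjured libraries 1 and 2 it was 2.58% (0.708 to 6.48) and 5.83% (3.05 to 9.95) in control and 0.928% (0.302 to 2.15) and 6.19% (3.24 to 10.6) in Nf1-KO skin. These intervals cover counting error only. Where the pair was scarce, nearly all its assigned reads were thus Krt6a. How far reads that also fit Krt5 enter the Krt6a count was not tested. Per length, Krt16 stood to the summed Krt6a and Krt6b level at 0.221 to 0.372 in uninjured libraries 1 and 2 of both genotypes. This ratio was 0.839 and 0.848 in uninjured libraries 3 and 0.736 to 1.08 with injury.

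No keratin of the 6 was called between genotypes by edgeR, DESeq2 or limma voom, and none had an unadjusted edgeR p under 0.05 there. In uninjured skin 0 of 6 passed, as did 0.0296% of all genes, 7 in number, with 8.34% of genes at an unadjusted p under 0.05. Log2 differences of Nf1-KO from control skin were 0.50 ± 1.51 for Krt6a, 0.17 ± 2.17 for Krt6b and 0.38 ± 1.93 for Krt16. They were 0.42 ± 0.32 for Krt17, 0.47 ± 0.64 for Krt75 and 0.45 ± 0.35 for Krt79, and adjusted p-values ran from 0.834 to 0.998. Their median was 0.43, beside -0.04 over all genes. For Krt6a, Krt6b and Krt16 1 library decides the sign: leaving out single libraries moved Krt6b from -6.24 (without Nf1-KO uninjured 3) to 6.44 (without control uninjured 3).

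In injured skin 0 of 6 passed, as did 0% of all genes (10.7% at an unadjusted p under 0.05). Krt6a, Krt6b and Krt16 differed by -0.68 ± 1.50, -0.93 ± 2.16 and -1.03 ± 1.94 on the log2 scale. Krt17 and Krt79 differed by -0.33 ± 0.32 and -0.63 ± 0.35, and Krt75 by 0.29 ± 0.63. The SE of the 3 stress keratins comes from a spread shared by all 4 groups, so it also holds the uninjured libraries numbered 3. The Nf1-KO and control injured libraries overlapped for all 6 genes, where 6.37% of all genes lay wholly higher and 2.67% wholly lower in Nf1-KO skin.

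The difference between the injury responses was below 0 for all 6, at -1.19 ± 2.13 for Krt6a, -1.10 ± 3.06 for Krt6b and -1.41 ± 2.73 for Krt16. It was -0.75 ± 0.46 for Krt17, -0.18 ± 0.90 for Krt75 and, as above, -1.08 ± 0.50 for Krt79. None passed, as for 0% of all genes (10.8% at an unadjusted p under 0.05). Their median was -1.09, beside 0.17 over all genes. The 6 genes are correlated and the comparison shares all its libraries with the others, so the common sign is given as a description. The intervals these errors imply are wide: a difference of several-fold in either direction was not detectable for Krt6a, Krt6b and Krt16.

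**Figure D5:**
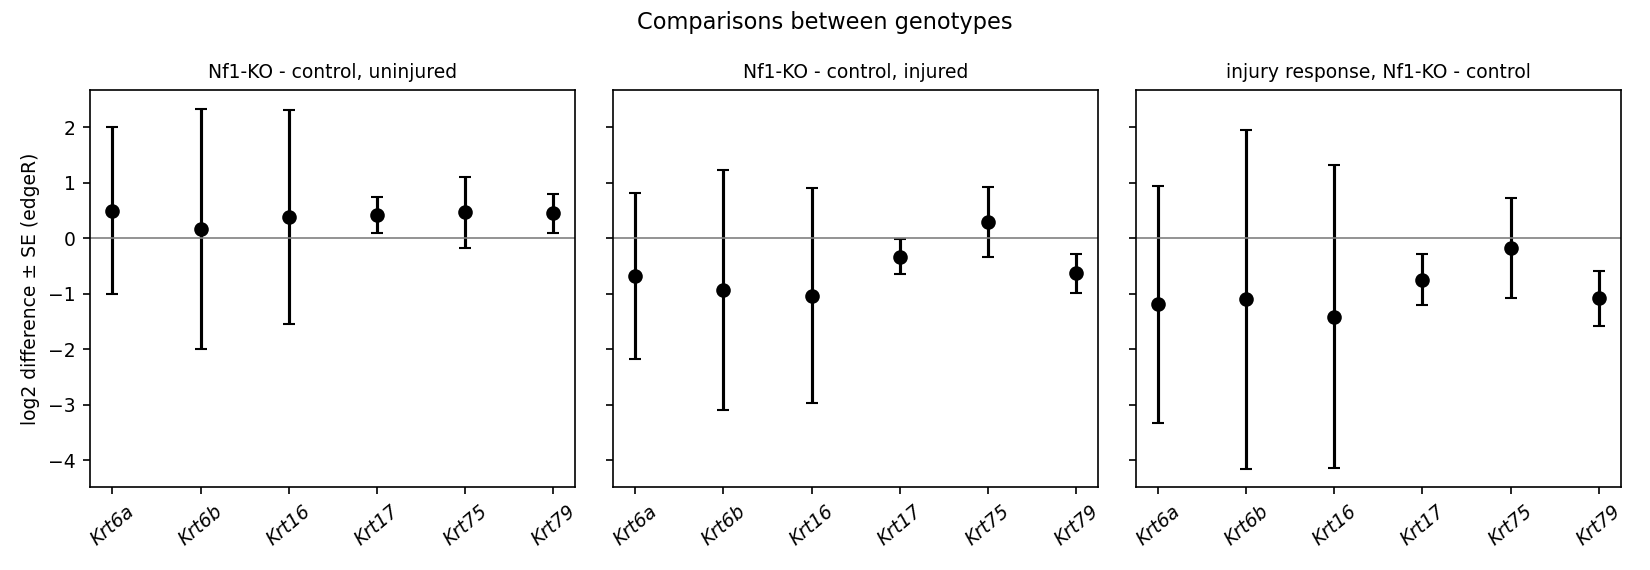
Log2 difference with SE of the 6 keratins for Nf1-KO minus control in uninjured skin (left), in injured skin (middle) and between the injury responses (right). No gene was called in any panel, and the errors of Krt6a, Krt6b and Krt16 run from 1.50 to 3.06.

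Keratins of the epidermis between follicles went the other way: 7 of 9 fell in control and 6 of 9 in Nf1-KO skin, none rose, and the median log2 fold change was -1.17 and -1.86. For this and the lists below, 22.8% of all genes were called higher and 32.5% lower in control skin. In Nf1-KO skin the shares were 19.1% and 18.4%. Krt15, a keratin of basal and bulge cells, fell with log2 fold changes of -2.03 and -3.07 in control and Nf1-KO skin (adjusted p = 0.000102 and 2.84e-06). Krt77 fell with -1.59 and -2.57 (adjusted p = 0.000124 and 1.85e-06). Without uninjured library 3 of each genotype the control count became 2 higher and 4 lower, with a median of -0.91.

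All 13 hair shaft keratins tested were called higher in both genotypes, with median log2 fold changes of 9.10 and 9.33, among them Krt31, a hair cortex keratin, by 9.10 and 10.69. Of 10 inner root sheath genes 9 rose and 1 fell in each genotype, with medians of 9.51 and 8.73. The summed hair shaft level was 16.8 to 50.4 CPM over the uninjured and 2616 to 9429 CPM over the injured libraries. Among 8 outer root sheath and bulge genes 6 rose in control and 4 in Nf1-KO skin. Tcf7l1, a transcription factor of outer root sheath and bulge, rose by 2.45 and 2.16 (adjusted p = 6.86e-06 and 1.59e-05). Of these compartments the outer root sheath is a normal site of Krt6a, Krt16 and Krt17, and the companion layer of Krt75 lies beside it. The part of these compartments in the rise of Krt6a, Krt16, Krt17 and Krt75 was not tested.

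Around Krt79, 4 of 8 upper follicle and sebaceous duct genes rose in control skin and none fell, while 2 rose and 1 fell in Nf1-KO skin. Without uninjured library 3 of each genotype 5 rose and none fell in each. Cst6, a cysteine protease inhibitor of the upper follicle, rose 5.65-fold in control and 2.41-fold in Nf1-KO skin (adjusted p = 0.000111 and 0.0123). Of 9 sebocyte genes 8 rose in control and 3 in Nf1-KO skin, with Soat1, a cholesterol esterifying enzyme, up by 1.62 and 1.43 (adjusted p = 5.13e-05 and 0.000133). The summed sebocyte level was 621 to 1446 CPM over the uninjured and 1469 to 2907 CPM over the injured libraries. None of these list genes was called between genotypes or in the difference between the injury responses.

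Of the 19 wound keratinocyte genes that are not keratins, 14 rose and 1 fell in control skin, and 11 rose and 1 fell in Nf1-KO skin. Their median log2 fold changes were 3.83 and 3.41. Without uninjured library 3 of each genotype 16 rose and 1 fell in each, with medians of 5.60 and 5.01. Gjb6, the gap junction protein connexin 30, rose by 4.45 and 3.53 (adjusted p = 9.64e-05 and 0.000341). Plaur, the urokinase receptor, rose by 2.94 and 3.02 (adjusted p = 0.000257 and 0.000261). The gene that fell was Serpinb2, a protease inhibitor, with log2 fold changes of -2.89 and -2.55 (adjusted p = 6.51e-05 and 0.000162).

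Genes reported to regulate stress keratins were mixed. Of 21 tested, 9 rose and 5 fell in control skin, where 22.8% of all genes tested were called higher and 32.5% lower. In Nf1-KO skin 5 rose and 5 fell, beside 19.1% and 18.4% of all genes. The medians were 0.45 and 0.37. Il1b, the cytokine interleukin 1 beta, rose by 3.75 and 3.22 (adjusted p = 3.33e-05 and 0.000108), and Hbegf, a ligand of the EGF receptor, by 2.78 and 2.25 (adjusted p = 0.000104 and 0.000491). Il22ra1, a receptor chain for interleukin 22, fell with log2 fold changes of -3.45 and -2.52 (adjusted p = 8.21e-06 and 0.000115). Among 9 genes for proteins that anchor or bind keratin filaments, 1 rose and 4 fell in control, and none rose and 5 fell in Nf1-KO skin. Without uninjured library 3 of each genotype 1 rose and 1 fell in control skin and 1 rose and 5 fell in Nf1-KO skin. Ppl, the filament linker periplakin, fell with -1.52 and -1.67 (adjusted p = 0.000173 and 8.61e-05).

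Marker RNA of other cell types also differed. All 5 proliferation genes rose in both genotypes, with Plk1, a mitotic kinase, up by 3.42 and 2.37 (adjusted p = 3.5e-06 and 4.55e-05). All 4 fibroblast and all 4 melanocyte genes rose in both genotypes, as did all 3 adipocyte and all 3 endothelial genes. Of 4 skeletal muscle genes 3 rose in control and 4 in Nf1-KO skin, and of 3 leukocyte genes 2 and 3 rose. Fibroblast genes summed to 712 to 1932 CPM over the uninjured and 4679 to 13756 CPM over the injured libraries. Melanocyte genes summed to 16.5 to 113 and 486 to 1492 CPM. The part of these differences in the keratin results was not tested. Of the 3 keratins of stomach, tongue and oesophagus, only Krt4 passed the filter, and it was not called.

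The genes whose levels followed each keratin most closely were sought among 13766 genes averaging 2 CPM or more. Over the 12 libraries Krt6b was followed most closely by Krt16 and Sprr1b (Pearson r = 0.995 for both). Krt16 was followed by Krt6b and the kallikrein peptidase gene Klk6 (both 0.995), and Krt6a by Krt16 (0.994) and Klk6 (0.988). Krt17 was closest to Cdk2ap1 (0.990) and Cst6 (0.981). Krt75 was closest to Irx4 (0.989) and Stbd1 (0.986), and Krt79 to the proteasome subunit gene Psmc3 (0.973) and the glycolytic gene Ldha (0.965). These correlations are descriptions over points that share the split by skin state and sex.

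After the mean of its group was subtracted from each library, Krt6a was closest to Bcl3 (r = 0.990) and Krt16 (0.985). Krt6b was closest to Sprr1b (0.986) and Krt16 (0.985), and Krt16 to Stfa1 (0.989) and Eif4b (0.986). Krt75 was then closest to Ptgds (0.974) and to Sox9 (0.957), a transcription factor of the outer root sheath, and Krt17 again to Cdk2ap1 (0.973). Krt79 was again closest to Psmc3 (0.993). Between members, the 3 pairs of Krt6a, Krt6b and Krt16 had r of 0.95 to 0.99 after subtraction, and all other pairs 0.57 to 0.74. These values rest heavily on the uninjured libraries numbered 3. Without both, r after subtraction over 10 libraries was 0.94 for Krt6a with Krt16, 0.62 for Krt6b with Krt16 and 0.41 for Krt6a with Krt6b. The other pairs then ran from -0.62 (Krt6b with Krt79) to 0.52 (Krt17 with Krt75), and 4 of them changed sign.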

How the data were processed

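The authors deposited unscaled counts of reads for each Ensembl gene, 1 column per library per the file headers. The submitters' processing notes name the build mm10 and the tools STAR 2.5.2b, HTSeq 0.5.3, SAMtools, DESeq2 and HOMER, without their roles. Per the labels' protocols, 10 ng of total RNA was amplified with Smart-Seq v4 and made into Nextera XT libraries. Symbols and lengths came from GENCODE M21, which 53274 of 53379 identifiers matched, and sequences from its transcripts. Of the table columns, 1 belonged to no listed sample and was not used.

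edgeR 4.0.16 (R 4.3.3) fitted the 12 libraries with 4 group means, TMM scaling, the default filter (count minimum 10) and robust quasi-likelihood tests, 2-sided. p-values were adjusted by Benjamini-Hochberg over 23635 genes, with calls under 0.05. The fit was tested on simulated counts in which no library was set apart, unlike uninjured library 3 of each genotype here. Correlations used log2 CPM with a prior count of 2. Named genes are the 6 members, up to 3 per list with the smallest p in control injury, and per member the 3 genes of highest correlation; the text gives a selection, chosen after values were seen, from the 17 lists. The members and lists were chosen with earlier results of these data known. Alternatives were DESeq2 1.42.0, limma voom (limma 3.58.1), other scalings and filters, a replicate block, a ribosomal RNA-like share as covariate, subsets of groups and libraries, and summed Krt6a and Krt6b.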

Additional observations from a re-analysis of the deposited data

How the results depend on the processing

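Across the settings, 454 member fold changes kept direction and side of the threshold, 28 gained a call, 2 lost one and 33 changed sign; all sign changes were in comparisons between genotypes or in the difference between the injury responses, and none of those was called. For the count of keratins called, control injury gave 3, but 4 with a filter of 2 CPM in 3 libraries. It gave 6 with DESeq2, limma voom, the replicate block and without uninjured library 3 of each genotype (single libraries left out: 3 to 6). Nf1-KO injury gave 2, but 5 with limma voom, 4 with the replicate block and 5 without uninjured library 3 of each genotype (single libraries: 2 to 5). Only without the filter did 1 pass in the difference between the responses. Without uninjured library 3 of each genotype, 22% of all genes were called higher in control and 18.8% in Nf1-KO skin. For the other settings such shares are not given here. Whether the counts of keratins called are particular to the keratins was not tested. For the count of all genes called, Nf1-KO in uninjured skin gave 7, but 4 with median-of-ratios scaling, 219 without a filter, 2 with a filter of 2 CPM in 3 libraries, 60 with DESeq2, 2 with limma voom, 1 with the replicate block, 27 from the compared groups alone and 1 without uninjured library 3 of each genotype (single libraries: 0 to 6). Nf1-KO in injured skin gave 0, but 410 without a filter, 124 with DESeq2, and 1 with limma voom or with the ribosomal RNA-like share as covariate (single libraries: 0 to 89). The difference between the responses gave 0, but 236 without a filter, 37 with DESeq2, 3 with the covariate, and 2 without uninjured library 3 of each genotype (single libraries: 0 to 3). Nf1-KO injury gave 8851, but 5804 with the covariate (single libraries: 5647 to 10020), and control injury 13072, but 6164 without control uninjured 1 and 2 (single libraries: 10915 to 14006).

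For Nf1-KO in uninjured skin the sign changed for Krt6b at -0.33 with limma voom. It changed for Krt6a, Krt6b and Krt16 at -0.31, -0.83 and -0.50 with the covariate, and at -1.01, -1.44 and -1.21 without control uninjured 1 and 2, where Krt75 was -0.18 and Krt79 -0.21. Leaving out single libraries spanned -2.11 to 3.67 for Krt6a, -6.24 to 6.44 for Krt6b, -4.26 to 5.16 for Krt16 and -0.19 to 0.92 for Krt75. In the difference between the responses Krt75 was 0.06 with limma voom and 0.10 with the block, and without control uninjured 1 and 2 Krt6a, Krt6b, Krt16 and Krt75 were 0.33, 0.51, 0.18 and 0.47. Single libraries spanned -4.46 to 1.44, -7.47 to 5.33, -6.29 to 3.25 and -0.70 to 0.49 for the same 4 genes. For Nf1-KO in injured skin Krt75 spanned -0.13 to 0.57. The cause of these changes was not tested.

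The labels do not say that replicate numbers pair the libraries. Same-numbered libraries had correlations of deviations from -0.1 to 0.38, and in no comparison were all above 0.1. The highest were 0.38 between uninjured libraries 2 and 0.22 between uninjured libraries 3 of control and Nf1-KO skin. Whether same-numbered libraries shared more than a number was not tested. The compared groups alone gave no value for the difference between the responses. Depth limits Krt6b most, which rests on 4 to 12 reads in 4 uninjured libraries.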
